A study of Rattus norvegicus with 24 samples.

Results

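The region difference was described in 12 libraries of high-responder rats, 6 from the amygdala and 6 from the dorsal raphe, out of 24 libraries in the series. They were chosen by their labels alone: every library titled as high responder was used. High-responder rats come from a line bred for a strong behavioural response to novelty. All tissue came from rats aged 60 days, and the labels name no treatment or altered gene in any group. The other 12 libraries come from the low-responder line, with 6 per region and the same age, and are used here for a side-by-side reading of the same contrast. The measure was poly-A RNA sequencing, given as whole-number read counts for 32662 Ensembl gene IDs. A count was present in at least 1 high-responder library for 23587 of these IDs, and 14367 passed the filter on low counts and were tested. The tested IDs held 99.9% of all counts.

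The amygdala is a group of forebrain nuclei known for its part in fear, anxiety and the emotional value of stimuli, and it is built mainly of glutamate and GABA neurons. The dorsal raphe lies in the midbrain and is a main site of serotonin cell bodies. Serotonin axons from the raphe reach much of the forebrain, the amygdala included, so the cell bodies that make the transmitter and one of their targets are set side by side here. No symbols accompany the IDs in the tables. The RefSeq gene table of assembly GRCr8 at hand gave no Ensembl IDs, so its 0 matches say nothing about these genes. Each gene appears below by ID, with no function attached, and the labelled regions were not checked against marker genes. In tissue made of many cell types, fewer cells of a type and less RNA per cell cannot be told apart.

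Totals ranged from 10333764 to 20194601 counts in amygdala libraries and from 9232983 to 19350143 in dorsal raphe libraries, and 18455 to 19821 IDs had a count in each library. Neither the mean total (two-sided exact permutation p = 0.686, n = 6 per region) nor the number of IDs with a count (exact permutation p = 0.206, adjusted over 3 library measures 0.308) differed detectably. The labels leave it unsaid if a region's 6 libraries came from 6 rats, so p-values reflect only how far these libraries vary, part of which may be technical. The running library numbers carried by the tables break within each region, and libraries after the first break are called later: amygdala 5 and 6, and dorsal raphe 4, 5 and 6. Counts were more concentrated in the dorsal raphe. The 10 most counted IDs of a library took 9.94% ± 1.97 of its counts there and 6.14% ± 1.45 in the amygdala (SD, n = 6 each; two-sided exact permutation p = 0.00433, adjusted over 3 library measures 0.0130). The ranges touched: 7.68% to 12.3% for dorsal raphe libraries and 3.60% to 7.93% for amygdala libraries.

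Region was the leading source of variation. The first principal component of log2 CPM (counts scaled to sequencing depth with TMM factors) carried 70.5% of the variance and placed the amygdala libraries between 50.4 and 61.8 and the dorsal raphe libraries between -68.5 and -46.6. The second component, with 12.6%, ran within regions. On it dorsal raphe libraries 4 and 5 lay at 40.8 and 34.4, library 6 at -7.57, and libraries 1, 2 and 3 between -34.6 and -23.4. Amygdala library 2 lay at 31.3, apart from the other 5 amygdala libraries at -13.2 to 6.52. On the third component, with 4.17%, amygdala library 2 lay at -36.6 and amygdala library 3 at 19.8. Amygdala library 2 and dorsal raphe libraries 4 and 5 thus stood apart from others of their region. Counts of calls without them are given below. The spread within a region was read without them only where earlier and later libraries were taken apart.

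**Figure D1:**
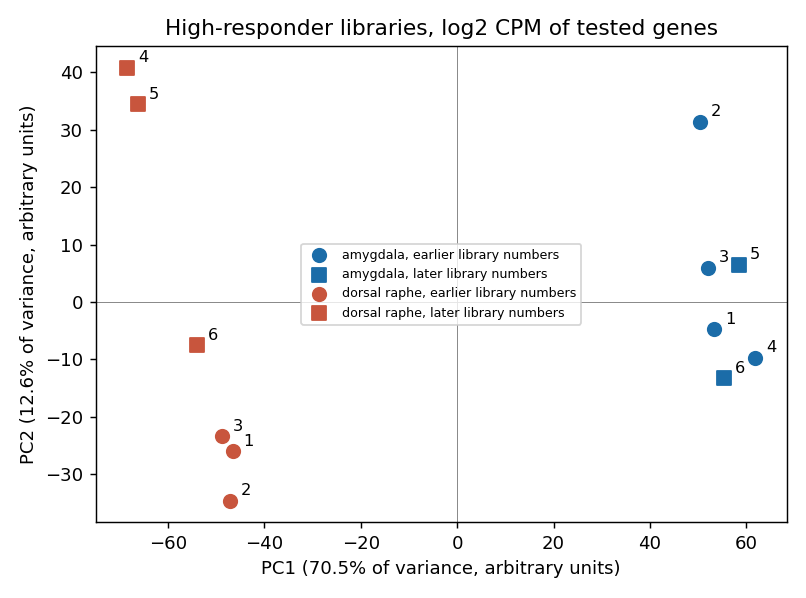
Principal components 1 and 2 of log2 CPM over the 14367 tested IDs, in arbitrary units, 1 point per high-responder library with its library number; blue is amygdala, red is dorsal raphe, circles are earlier and squares later library numbers. The regions part along the horizontal axis, while dorsal raphe libraries 4 and 5 and amygdala library 2 lie at the top of the vertical axis, between 31.3 and 40.8.

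The first question was how much of the expressed genome differs between the regions within this line. A large share of what was tested differed, mostly by small amounts. Of 14367 IDs, 7479 (52.1%) passed edgeR's quasi-likelihood test at an adjusted p under 0.05, 3706 with the amygdala higher (25.8%) and 3773 with the dorsal raphe higher (26.3%). Among the called IDs the log2 fold change had a median size of 0.66, which is 1.58-fold. Of the called IDs, 1633 on the amygdala side and 1643 on the dorsal raphe side differed by less than 1.5-fold by estimate. Between 1.5-fold and 2-fold stood 942 and 1032, between 2-fold and 4-fold 763 and 801, between 4-fold and 16-fold 301 and 223, and at 16-fold or more 67 and 74. Of the calls 49.6% were toward the amygdala with TMM factors, which centre the fold changes near 0, and 46.2% with scaling to library size only (3410 against 3965).

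A test against a 2-fold difference was used to separate large from small changes. It was passed by 1222 IDs (8.51%), 660 on the amygdala side (4.59%) and 562 on the dorsal raphe side (3.91%). The libraries of the regions did not overlap for 4671 of all tested IDs (32.5%), 2376 with the amygdala above (16.5%) and 2295 with the dorsal raphe above (16.0%). Non-overlap was found for 62.3% of the called IDs and for 98.9% of those past the 2-fold test, 1209 of 1222.

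For many IDs the data bounded the difference to a small size. The 95% interval of the fold change lay within 1.5-fold in either direction for 6230 of the 14367 tested IDs (43.4%), of which 1645 were called different and 4585 were not. It lay within 1.2-fold for 1192 of the 14367 (8.30%), of which 15 were called and 1177 were not. The same was read in low-responder libraries, which share no library with these. Of 1191 IDs within 1.2-fold here and tested in both lines, 569 (47.8%) lay within 1.2-fold there too, against 5.74% of all IDs tested in both lines. These shares are not matched for level: the 1191 IDs had a median of 61.0 CPM, and narrow intervals are commoner at higher counts. Of the 6888 IDs that were not called, 666 had an interval reaching beyond 2-fold. Their median level was 3.27 CPM, against 25.04 CPM over all tested IDs, and a 2-fold difference was not excluded for them.

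The direction of the difference varied with the level of the gene. The tested IDs were split into 4 bins of equal size by mean CPM over the 12 libraries. In the lowest bin, from 0.687 to 7.46 CPM, 1656 IDs (46.1%) were called, and 38.3% of the calls were higher in the amygdala. This share was 46.3% and 51.7% in the next bins and 59.3% in the highest, above 65.6 CPM, where 2102 IDs (58.5%) were called. Past the 2-fold test the lowest bin held 170 amygdala IDs and 266 dorsal raphe IDs, each named by the region with the higher level. The next bins held 163 and 143, then 126 and 87, and the highest bin held 201 and 66. Among large differences, dorsal raphe IDs were thus the more numerous only in the lowest bin. Amygdala IDs were the more numerous in each bin above it, most clearly in the highest. The order of the lowest and highest bins was the same without scaling beyond library size (36.4% and 55.7%), in earlier libraries (36.2% and 61.5%) and in later libraries (42.0% and 57.2%). CPM does not correct for gene length, so levels are compared here only as numbers of counts.

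**Figure D2:**
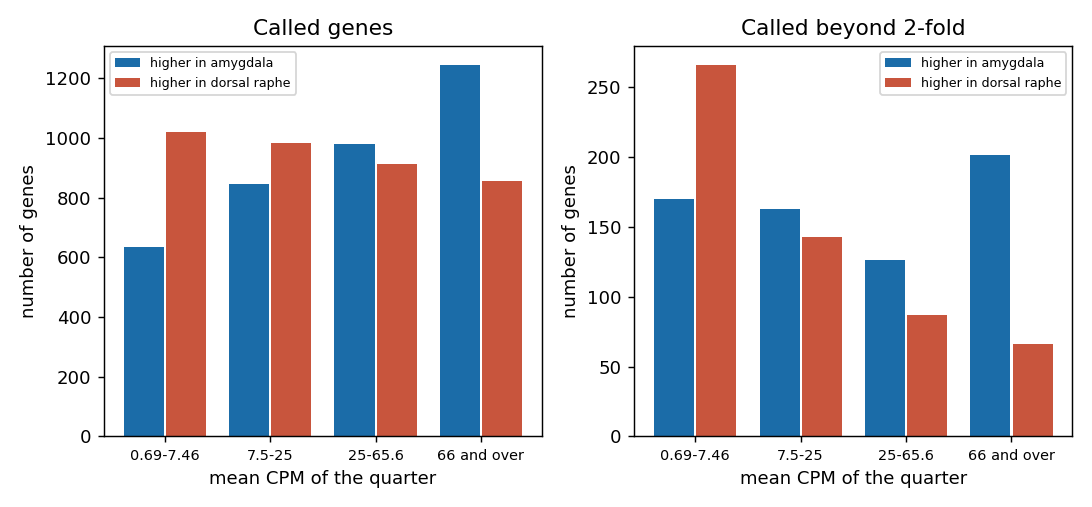
Number of IDs called between the regions in each of 4 equal bins of mean CPM over the 12 high-responder libraries, blue higher in amygdala and red higher in dorsal raphe; left, all called IDs, right, IDs past the 2-fold test. Red bars exceed blue ones in the lowest bin (266 against 170 past the 2-fold test) and blue exceed red in the highest (201 against 66).

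The sharpest differences were IDs counted in one region and hardly in the other. ENSRNOG00000051264 is an amygdala ID. In amygdala libraries 1 to 6 it stood at 14.7, 13.5, 16.9, 15.2, 12.9 and 11.6 CPM, a mean of 14.1 ± 1.88 (SD, n = 6). It had 1065 counts there and 0 counts over the 6 dorsal raphe libraries. For a lower bound, the counts of each region were pooled and set over the scaled total of its 6 libraries. With a floor of 3 counts for the whole dorsal raphe group, the pooled level was at least 396-fold higher in the amygdala. The call itself (edgeR adjusted p = 9.64e-09) was a test against no difference and not against this bound. Such a bound covers counting error of the 0 only and leaves out the spread among libraries. Every amygdala library was close to the mean and no dorsal raphe library held a read.

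ENSRNOG00000047891 showed the same direction at a higher level. Amygdala libraries 1 to 6 stood at 111.5, 125.6, 122.6, 126.2, 116.6 and 105.5 CPM, and dorsal raphe libraries 1 to 6 at 0.180, 0, 0.300, 0.111, 0 and 0.173 CPM. The spread among amygdala libraries was 7.06% of their mean of 118.0 CPM. The log2 fold change was 9.59 (SE 0.22, edgeR adjusted p = 1.26e-12), from 8746 amygdala counts and 12 dorsal raphe counts. Both IDs were thus even across amygdala libraries.

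The IDs at the dorsal raphe end were less even. ENSRNOG00000017856 stood at 4.14, 23.4, 19.3, 31.8, 28.6 and 14.8 CPM in dorsal raphe libraries 1 to 6, a mean of 20.36 ± 10.04 (SD, n = 6), and had 0 counts over the 6 amygdala libraries. It was called higher in the dorsal raphe (edgeR adjusted p = 1.68e-05, against no difference). By pooled counts it was at least 523-fold higher there (floor of 3 counts over the group). That bound leaves out the spread among libraries. Library 1 was the low one, and library 4 the high one.

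ENSRNOG00000016311 also had 0 counts in the amygdala. In dorsal raphe libraries 1 to 6 it stood at 22.8, 8.76, 24.3, 13.4, 11.6 and 15.4 CPM, a mean of 16.03 ± 6.25 (SD, n = 6). It was called higher there (edgeR adjusted p = 1.22e-06, against no difference). By pooled counts, with the same floor, it was at least 413-fold higher. Its order among the libraries was another one: library 1, lowest for the previous ID, was next to the highest here, and library 2 was lowest. In low-responder dorsal raphe it had 83 to 202 counts in 5 libraries and 5 counts in library 4, and 5 counts over the 6 amygdala libraries. It did not pass the filter on low counts in the low-responder fit, so that line alone gave no test of it. In the fit on all 24 libraries its region difference was not called between lines (log2 value -3.55, edgeR adjusted p = 0.99989).

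**Figure D3:**
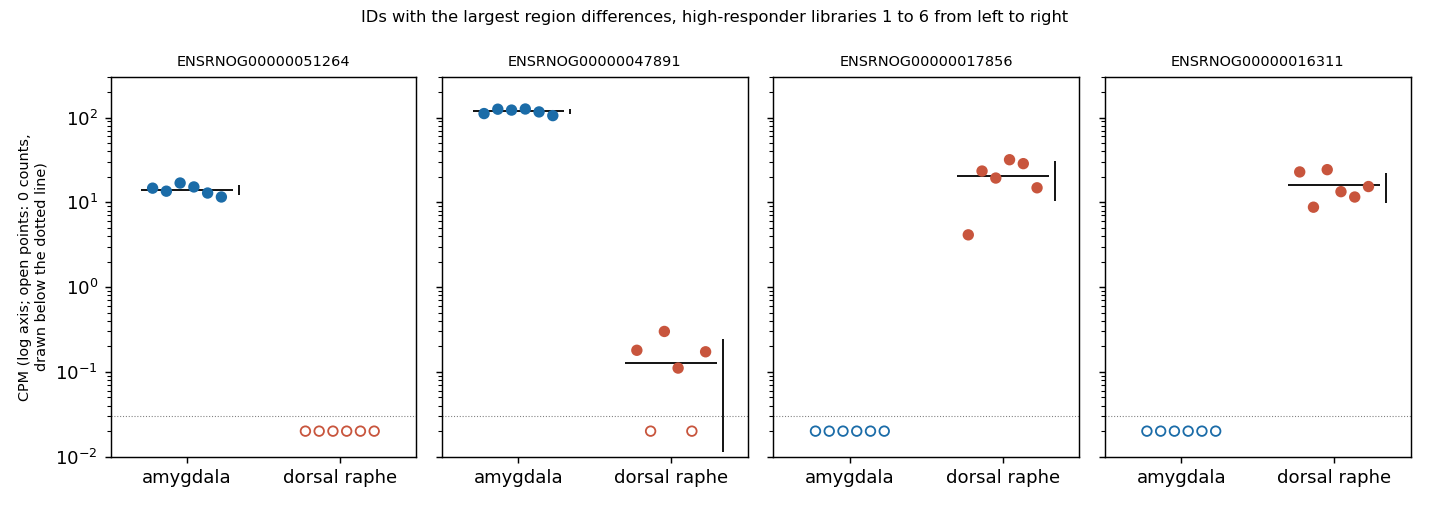
CPM on a log axis in the 6 amygdala (blue) and 6 dorsal raphe (red) high-responder libraries, libraries 1 to 6 from left to right within a region, for the IDs with the largest fitted differences; lines are means, vertical bars ± 1 SD, and open points below the dotted line are libraries with 0 counts. That no region overlaps the other was a condition for naming these IDs, and dorsal raphe library 1 is the low point of ENSRNOG00000017856, at 4.14 CPM.

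IDs well counted in 1 region and at 0 in the other were few. The base was the 23587 IDs with a count in any high-responder library. Of these, 7 had 30 or more amygdala counts with 0 from the dorsal raphe. Another 23 had 30 or more dorsal raphe counts with 0 from the amygdala. With 100 or more counts the numbers were 4 and 12, and with 10 or more 28 and 48. Of the 7, 4 had 0 counts in low-responder dorsal raphe as well, and of the 23, 13 had 0 counts in low-responder amygdala. A count of 0 allows up to 0.0402 CPM over the amygdala group and 0.0360 CPM over the dorsal raphe group, at 3 counts of the scaled total. Since reads lacking molecular identifiers may be copies of 1 molecule, these floors cover counting error only.

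**Figure D4:**
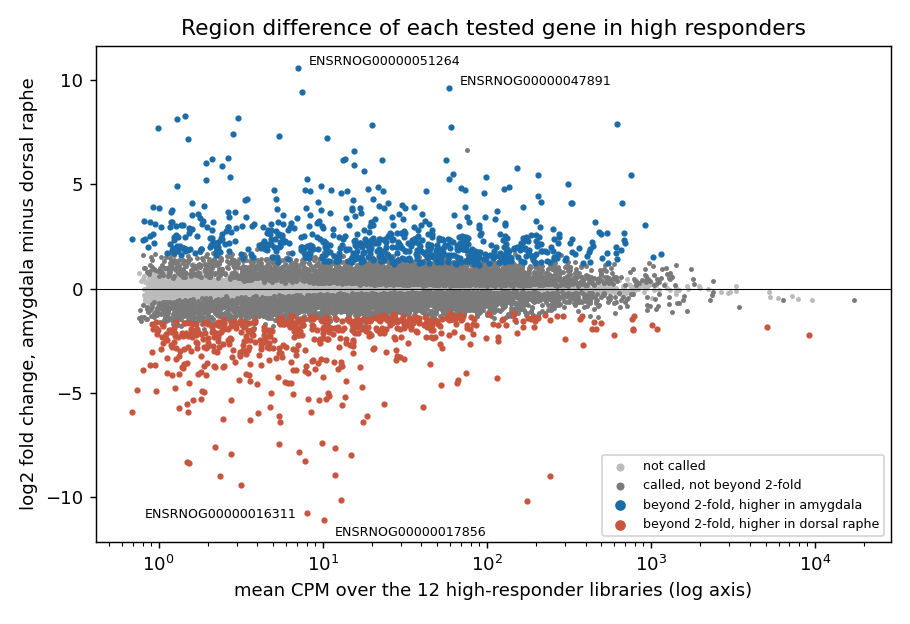
Log2 fold change (amygdala minus dorsal raphe) of each of the 14367 tested IDs against its mean CPM over the 12 high-responder libraries on a log axis; light grey is not called, dark grey called but not past the 2-fold test, blue and red past it in either direction. The 660 blue and 562 red points start beyond a log2 fold change of 1, and the fitted values of IDs with 0 counts in a region depend on the fit's prior count.

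One ID was decided by a single library. Of 141 called IDs at 16-fold or more, 140 passed the 2-fold test, and the exception, looked at after its values were seen, was ENSRNOG00000016275. In amygdala libraries 1 to 6 it stood at 1.05, 897, 0.159, 0.665, 0.0913 and 0 CPM, and in dorsal raphe libraries 1 to 6 at 0.809, 1.26, 1.65, 2.88, 1.01 and 0.863 CPM. Library 2 alone was high, with 9206 counts against at most 21 in the other amygdala libraries. The log2 fold change was 6.62 (SE 2.06, edgeR adjusted p = 0.0153) over all libraries and -1.69 (SE 0.59, edgeR adjusted p = 0.0283) without amygdala library 2, so both the call of a higher level in the amygdala and its reversal rest on that library. A search for IDs at 10 CPM or more in 1 library and over 10 times the highest of the other 5 of its region found 3 in amygdala library 2 and 0 in each of the other 11 libraries. Without amygdala library 2, 7495 IDs were called and 1292 passed the 2-fold test, 681 of them amygdala IDs and 611 dorsal raphe IDs.

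Within the dorsal raphe, library 1, looked at after its values were seen, was low for many of the strongest raphe genes. To read this on genes not chosen in these libraries, IDs over 16-fold higher in the dorsal raphe were taken from the low-responder fit, and 45 of the 50 were tested here. All 45 were called higher in the dorsal raphe here too, against 26.3% of all tested IDs. The filter on low counts favoured this, since IDs so low in the amygdala pass it mainly through their dorsal raphe counts. The 26.3% is therefore not a matched share. Their median log2 fold change was -5.66, against -5.64 in low responders. Their CPM summed to 1162 in dorsal raphe library 1 and to 1980 to 2728 in libraries 2 to 6, and to 43.5 to 77.4 in the amygdala libraries. Library 1 was the lowest of the 6 for 24 of the 45 IDs (53.3%), against 17.3% of the 14330 tested IDs with counts in all 6 dorsal raphe libraries. Its level was under 0.5 times the median of the other 5 for 11 of the 45 (24.4%), against 1.73% of those IDs, and it lay above that median for 10. The ratio ran from 0.128 to 3.62, so library 1 was low for a subset of the strongest raphe IDs and not for all of them.

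The matching amygdala set was read in the same way. Of 81 IDs over 16-fold higher in low-responder amygdala, 77 were tested here. All 77 were called higher in the amygdala here too, against 25.8% of all tested IDs. The filter favoured this in the same way, so the 25.8% is not a matched share either. Their median log2 fold change was 4.84, against 5.13 in low responders. Their CPM summed to between 9428 and 13282 in the amygdala libraries, highest in library 2, and to between 339 and 476 in the dorsal raphe libraries. The highest level of an ID was 1.71 times its lowest across the 6 amygdala libraries (median over the 77). For the 45 raphe IDs it was 2.12 times across the 6 dorsal raphe libraries, and 1.57 times without library 1.

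Spread within a region was larger in the dorsal raphe over all 6 libraries, and this did not hold among earlier libraries alone. The median SD of log2 CPM among the 6 libraries was 0.23 in the dorsal raphe and 0.19 in the amygdala, and 8557 of 14367 IDs (59.6%) had the larger SD in the dorsal raphe. Among earlier libraries the median SD was 0.12 in the dorsal raphe (3 libraries) and 0.20 in the amygdala (4 libraries, library 2 included). Among later libraries it was 0.18 (3 libraries) and 0.11 (2 libraries). A median SD tends to be smaller with fewer libraries, so these values do not settle which region varied more. The mean log2 CPM of dorsal raphe libraries 1 to 3 differed from that of libraries 4 to 6 by over 2-fold for 700 IDs. Of these, 644 were higher in the earlier libraries and 56 in the later ones. Earlier and later amygdala libraries (4 against 2) differed by over 2-fold for 92 IDs. The group sizes are unlike, so 700 and 92 are not a matched comparison.

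The region difference was therefore read apart in earlier and later libraries, which share no library. Earlier libraries (4 amygdala, 3 dorsal raphe) called 6341 of 14764 IDs (42.9%) and later ones (2 amygdala, 3 dorsal raphe) 6512 of 14705 (44.3%). Of 14327 IDs tested in both, 3996 were called in both, which is 64.8% of the earlier and 62.8% of the later calls, and 3969 of the 3996 had the same sign. The other 27 were called in opposite directions, 8 higher in the amygdala in earlier libraries and 19 higher there in later ones. Earlier and later fold changes, taken on the log2 scale across these IDs (genes, not replicates), correlated with Pearson's r of 0.842 and Spearman's rho of 0.678.

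Whether any of this is particular to the high-responder line was asked against the low-responder line. The same test in its 12 libraries called 7353 of 14455 IDs (50.9%), 3610 toward the amygdala and 3743 toward the dorsal raphe. Of those 14455, 1401 passed the 2-fold test (9.69%), 752 with the amygdala higher (5.20%) and 649 with the dorsal raphe higher (4.49%). Of 14222 IDs tested in both lines, 6298 were called in both, 85.1% of the high-responder and 86.8% of the low-responder calls, and 6297 of them had the same sign. Across IDs the lines correlated in log2 fold change with Pearson's r of 0.966 and Spearman's rho of 0.943. The 2-fold test was passed by 1187 of these IDs in high responders and 1363 in low responders, with 1071 in both, 90.2% and 78.6% of the lists. Of the 116 that passed in high responders alone, 109 differed by over 2-fold in the same direction in low responders by estimate. The median size over the 116 was 1.32 there and 1.67 here on the log2 scale. They were chosen for passing here and not there, so a larger size here, and small p-values between lines, are favoured by that choice. For 12 of the 116 the difference between lines had an unadjusted p under 0.05, and for 0 of them did it pass after adjustment over all genes.

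The test of the difference between lines, fitted on all 24 libraries, called 1 of 14977 IDs (0.00668%), and 458 (3.06%) had an unadjusted p under 0.05. That share is below the 0.05 that evenly spread p-values would give. The smallest edgeR adjusted p of the IDs not called between lines was 0.99989. The SE of the difference between lines had a median of 0.20 on the log2 scale, so small differences may have gone uncalled. The ID that passed, ENSRNOG00000028041, was called in opposite directions in the lines. In high responders it stood at 4.12, 2.12, 3.79, 3.10, 3.44 and 2.11 CPM in amygdala libraries 1 to 6 and at 1.35, 0.888, 1.25, 1.26, 1.78 and 1.03 CPM in dorsal raphe libraries 1 to 6. Every amygdala library was above every dorsal raphe library, on 12 to 83 counts each. The log2 fold change was 1.34 (SE 0.22, edgeR adjusted p = 0.000151). In low responders the amygdala libraries lay at 1.79 to 5.14 CPM (median 3.74) and the dorsal raphe libraries at 12.1 to 80.1 CPM (median 17.7), and the log2 value for the region was -2.93 (SE 0.47, edgeR adjusted p = 0.000141). Here the dorsal raphe libraries were all above. The difference between the lines was 4.28 (SE 0.58, edgeR adjusted p = 0.00195), and 3.60 without low-responder dorsal raphe library 5, the highest. Amygdala levels were alike in both lines, with means of 3.12 ± 0.845 and 3.63 ± 1.09 CPM (SD, n = 6 each), and the dorsal raphe levels differed, at 1.26 ± 0.304 and 27.9 ± 26.2 CPM. In later high-responder libraries alone the region call of this ID ended (log2 fold change 1.06, edgeR adjusted p = 0.0501).

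**Figure D5:**
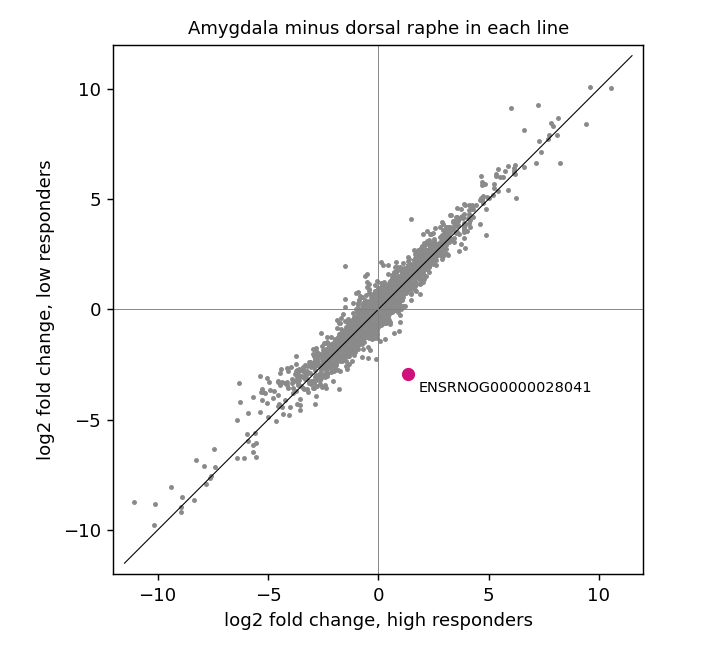
Log2 fold change, amygdala minus dorsal raphe, of 14222 IDs in high responders (horizontal axis) and in low responders (vertical axis); the black line marks equal values. Points follow the line (Pearson's r of 0.966), and ENSRNOG00000028041, in magenta, lies at 1.34 and -2.93.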

How the data were processed

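Whole-number counts of reads per gene were deposited by the authors, with 1 table per library and no normalization, per the file headers and values. Poly-A libraries were made from RNA extracted with a Qiagen miRNeasy kit, per the labels' protocols. Trim Galore, STAR and genome build rn6 were used, per the submitters' processing notes. The counting program, its strand setting and its handling of multi-mapped reads are not given in the sources used here, so near-identical, overlapping or antisense genes may share counts.

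Tests used edgeR 4.0.16 under R 4.3.3 (filterByExpr, TMM, glmQLFit, glmQLFTest, Benjamini-Hochberg adjusted p under 0.05), on the 12 high-responder libraries, on the 12 low-responder libraries, and on all 24 for the difference between lines. The 2-fold test was glmTreat on the high-responder fit and on the low-responder fit. The SE of a log2 fold change is its size over the root of its F statistic. CPM values were computed here with the TMM factors of the fit, and principal components used log2 CPM at prior count 2. Library measures were compared with exact permutation tests. The fits were tested on simulated data. No pair of libraries of a region looked like 1 library deposited again: chi-square over its degrees of freedom was 4.16 or more for each pair. All lines of the tables named a gene (0 exceptions).

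The comparison, lists and tests were chosen with earlier results of these data known, and the libraries then followed from their labels. Gene and marker lists were not applied, since no ID had a symbol. Named IDs had an adjusted p under 0.05, at least 10 CPM in the higher region and no overlap, ranked by log2 fold change, 2 per direction, and every ID called between lines. Alternatives were RLE factors, library size only, other filters, DESeq2 1.42.0, voom with quality weights in limma 3.58.1, a replicate block, earlier or later libraries, a term for later libraries, a 1.2-fold test and leaving out each library. Leaving out dorsal raphe libraries 4 and 5, or these with dorsal raphe library 1 and amygdala library 2, was chosen after seeing the data.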

Additional observations from a re-analysis of the deposited data

Results flagged for a closer look

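A single library lay far outside its region in 4 of the 27 sets of 6 values looked at. Chance flags about 1 in 20 unselected sets, and that rate does not apply to this count: 2 of the 4 are measures of 1 library, and ENSRNOG00000016275 was looked at because a single library decided it. High-responder amygdala library 1 had 20194601 counts, where the next highest had 12243679, and 19633 IDs with a count, where the next highest had 18771. ENSRNOG00000016275 stood at 897 CPM in high-responder amygdala library 2, where the next highest amygdala library had 1.05 CPM. ENSRNOG00000028041 reached 80.1 CPM in library 5 of low-responder dorsal raphe, where the next highest had 26.9 CPM. The region difference of ENSRNOG00000028041 differed between the lines by a log2 value of 4.28, as tested by the interaction of region and line (edgeR adjusted p = 0.00195).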

How the results depend on the processing

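The count of 7479 IDs called between regions stayed within 1.5 times under every alternative fit but the test against a 1.2-fold difference, which called 4909. Leaving out each library in turn gave 6959 to 7605 calls, and 1193 to 1292 past the 2-fold test. Without dorsal raphe libraries 4 and 5, 7540 IDs were called and 1222 passed the 2-fold test. With dorsal raphe library 1 and amygdala library 2 left out as well, the numbers were 7138 and 1260. DESeq2 called 7714 and limma voom 8539, and shared 99.4% and 97.0% of the 7479. The difference between lines called 1 ID with RLE factors, with DESeq2, with the block and in each fit that left out a library, and 2 with limma voom. For ENSRNOG00000016275 the log2 fold change reversed to -1.69 without amygdala library 2 (up to 6.96 without another library), and to -4.88 in later libraries alone (edgeR adjusted p = 0.0283 and 0.0154). It was -1.27 with limma voom (adjusted p = 0.334) and -1.48 without amygdala library 2 and dorsal raphe libraries 1, 4 and 5 (edgeR adjusted p = 0.0633), neither of them a call. Its call also ended in earlier libraries alone (7.41, edgeR adjusted p = 0.0560) and with a term for later libraries (5.20, edgeR adjusted p = 0.116). DESeq2 gave it no adjusted p, and the causes were not tested.

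Equal library numbers in the regions were not shown to mark the same rat: deviations of same-numbered libraries correlated between -0.32 and 0.19. With the replicate block 6557 IDs were called, 1155 past the 2-fold test, and in low responders 6784. The block ended the call of ENSRNOG00000016275 (log2 fold change 0.79, edgeR adjusted p = 0.771) and of no other ID named here.

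IDs of a few CPM carry wide intervals at these depths, and the later libraries hold 2 amygdala libraries.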
